A study of Mus musculus with 4 samples.

Results

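Macrophage marker genes were followed in 4 RNA sequencing libraries of cultured mouse spermatogonia. The 10 genes, Lyz2, Cd14, Adgre1, Cd68, Csf1r, Tyrobp, Fcer1g, Ptprc, Cd74 and C1qa, were chosen by name, and each matched 1 row among the 32285 genes of the count table. Of the 10, 6 passed the filter on low counts and entered the test of the strains, as did 16005 genes in all. The cells were wild-type GS cells, spermatogonia grown from the testes of mice aged 10 days. There were 2 libraries from strain 129 and 2 from C57BL/6 (B6), and the B6 titles also carry the mark F0, which the labels do not explain. No label tells of independent cultures or animals behind the 2 libraries of a strain. The p-values set the strain difference against the spread between these libraries, which may be technical, so they cannot be extended to the strains. Feeder cells and growth medium are not described in the labels. Values are CPM, counts relative to the TMM-scaled library size, and each log2 fold change sets 129 over B6 and comes with a standard error (SE).

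Macrophages are phagocytes of the innate immune system, and the testis holds resident populations between and around its tubules. They depend on the growth factor receptor encoded by Csf1r, engulf and digest particles with lysosomal proteins and lysozyme, and sense antibodies, complement and bacterial products through surface receptors, some of which signal by way of the adaptors TYROBP and FCER1G. Several of the genes used as their markers are also read in other cell types, Cd68 and Cd74 among them, whereas Adgre1, Tyrobp and C1qa are more restricted to myeloid cells.

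Lyz2 and its neighbour Lyz1 encode the mouse lysozymes, enzymes that cleave bacterial cell walls, and Lyz2 was among the most abundant of the 10 genes while Lyz1 was close to 0. Lyz2 lies on chromosome 10 of GRCm38 at 117277331 to 117282321 and Lyz1 beside it at 117287797 to 117292868, both on the minus strand. Their upstream sequences are shown because the members of this pair are so alike and yet so differently counted. Each window runs from 250 to 51 bases before the RefSeq start (RefSeq, GRCm38.p6, minus strand, 5′ to 3′), and capitals mark matches to AGGAAGT or its complement ACTTCCT, the core recognised by the myeloid factor PU.1 and by other ETS proteins.
Lyz2, chr10:117282323-117282522: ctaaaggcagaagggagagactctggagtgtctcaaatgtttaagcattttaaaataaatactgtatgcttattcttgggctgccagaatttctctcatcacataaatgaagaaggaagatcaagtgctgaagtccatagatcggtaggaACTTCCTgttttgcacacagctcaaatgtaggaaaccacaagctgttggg
Lyz1, chr10:117292919-117293118: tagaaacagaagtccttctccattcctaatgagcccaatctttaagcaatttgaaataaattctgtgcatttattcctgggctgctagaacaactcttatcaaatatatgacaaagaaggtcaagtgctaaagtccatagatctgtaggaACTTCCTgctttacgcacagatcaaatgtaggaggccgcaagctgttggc
The windows were 74.3% identical over their alignment, and each held 1 match, written ACTTCCT on the strand shown. Of 27025 genes with a promoter entry, 6.52% had a match on either strand in a window of this length. Ptprc also had a match, Cd68 and Fcer1g had none, and these and Lyz2 were the 4 marker genes matched in the promoter table.

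Lyz2 counts were 163 and 70 in the 129 libraries, against 242 and 340 in the B6 libraries. Lyz1 had 2 and 0 counts in 129 and 0 and 0 in B6, and the 6 listed genes of the lysozyme family besides Lyz2 summed to 0.0966 and 0 CPM in 129, against 0 and 0.0990 CPM in B6. The transcripts of the pair are 92.0% identical, but 72 of the 1241 windows of 76 bases in Lyz2, the read length used here, also occur in Lyz1 (5.8%), so most reads can be told apart. In CPM, Lyz2 stood at 7.87 and 3.32 in 129, against 9.72 and 16.8 in B6. Both 129 libraries lay below both B6 libraries, and the difference did not pass the test (log2 fold change -1.24, SE 0.54, edgeR adjusted p = 0.19). With bulk RNA, fewer cells of a type and less RNA per cell cannot be told apart.

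Cd68 encodes a heavily glycosylated protein of the lysosome and lies on chromosome 11 at 69664213 to 69666153. It was at 9.42 and 4.41 CPM in 129, against 15.6 and 2.87 CPM in B6. The highest and the lowest of the 4 libraries were both B6, 5.44-fold apart, so the strains overlapped. The log2 fold change was -0.44 (SE 0.78, edgeR adjusted p = 0.75), and it was 1.26 without B6 replicate 1.

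Cd14 had the largest log2 fold change of the 6 tested genes. It encodes the co-receptor that hands bacterial lipopolysaccharide to Toll-like receptor 4, and it lies on chromosome 18 at 36725067 to 36726798. Its level was 28.3 and 9.20 CPM in 129, against 2.45 and 3.47 CPM in B6. Both 129 libraries were above both B6 libraries, and the 129 mean was 6.33 times the B6 mean. With all 4 libraries the gene did not pass (log2 fold change 2.67, SE 0.64, edgeR adjusted p = 0.063). It passed in DESeq2 (adjusted p = 1.5e-04), which called 14.8% of all genes, and in edgeR with library totals (adjusted p = 0.047; 6.57% of all genes called) or upper-quartile factors (adjusted p = 0.049; 6.38%). It also passed in edgeR without 129 replicate 2 (log2 fold change 3.27, adjusted p = 0.027), where 4.92% of all genes were called. Without 129 replicate 1 it was 1.65 (edgeR adjusted p = 0.31).

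Among the genes that act with Cd14, Lbp rose in 129 and the receptor genes did not pass. Lbp, whose secreted product carries lipopolysaccharide to CD14, was at 37.7 and 14.7 CPM in 129, against 1.53 and 3.22 CPM in B6, and it passed the test (log2 fold change 3.49, SE 0.63, edgeR adjusted p = 0.047). The Lbp call was lost when 129 replicate 1 (2.66), B6 replicate 1 (3.02) or B6 replicate 2 (4.05) was dropped, with edgeR adjusted p from 0.12 to 0.20, in fits that called 0.0782%, 0.0% and 0.00595% of all genes tested. It was also lost with no filter (3.49, edgeR adjusted p = 0.057) and with a stricter filter (3.47, edgeR adjusted p = 0.051). Tlr4, the receptor itself, was at 27.0 and 7.30 CPM in 129, against 1.93 and 3.71 CPM in B6. Its extracellular partner Ly96 was at 4.01 and 1.61 CPM in 129, against 0.562 and 0.396 CPM in B6. Neither passed (edgeR adjusted p = 0.084 for each), though for both the strains did not overlap. Tlr2, another receptor served by CD14, was at 13.5 and 3.08 CPM in 129, against 0.924 and 5.15 CPM in B6, and overlapped. Across all genes tested edgeR called 1.84% higher and 1.02% lower in 129. Of 10 tested genes of this receptor complex and its signalling proteins, 1 rose and 9 did not pass, with a median log2 fold change of 1.26, where the median over all genes tested was 0.015. In DESeq2, which called 9.46% of all genes higher and 5.38% lower, 5 of the list were higher. The most abundant were Irak1, a kinase of the pathway, at 104 and 64.4 CPM in 129, against 32.3 and 28.1 CPM in B6 (edgeR adjusted p = 0.051), and the adaptor gene Tirap, at 27.0 and 26.2 CPM in 129, against 26.9 and 30.5 CPM in B6.

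Csf1r, the receptor through which macrophages receive survival signals, was low in every library. It lies on chromosome 18 at 61100598 to 61132149, and 15.1% of its exon bases overlap those of Hmgxb3 on the opposite strand. Hmgxb3 was at 109 and 133 CPM in 129 and at 105 and 102 CPM in B6, and it is not known whether reads were counted by strand. Csf1r was at 3.19 and 0.948 CPM in 129, against 0.442 and 1.04 CPM in B6. The 129 libraries were 3.36-fold apart and overlapped B6 (log2 fold change 1.52, SE 0.77, edgeR adjusted p = 0.25).

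Neither ligand of this receptor passed the test. Csf1 was at 281 and 65.9 CPM in 129, against 42.5 and 82.6 CPM in B6, and Il34, the other ligand, was at 3.53 and 1.94 CPM in 129, against 0.924 and 3.27 CPM in B6. The strains overlapped for both ligands. Csf2rb, the shared beta chain of the GM-CSF and interleukin-3 receptors, was at 48.2 and 16.4 CPM in 129, against 0.161 and 0.297 CPM in B6 (log2 fold change 7.14, SE 0.87, edgeR adjusted p = 0.029). Some 7.0% of the windows of 76 bases in Csf2rb occur in another gene, chiefly its copy Csf2rb2. Without 129 replicate 1 (6.17), B6 replicate 1 (6.73) or B6 replicate 2 (7.56) this call ended, in fits that called almost no gene. Csf2rb was the 1 rise among 7 tested genes of this receptor and ligand list, in which 0 fell and 6 did not pass. All 7 log2 fold changes were positive, with a median of 1.99, where the median over all genes tested was 0.015. DESeq2 called 3 of the list higher, where it called 9.46% of all genes higher.

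Tyrobp and Fcer1g encode short membrane adaptors whose cytoplasmic tails carry the activation motif that recruits the kinase SYK. Tyrobp lies on chromosome 7 at 30413760 to 30417585 and had 1 and 0 counts in 129, against 5 and 0 counts in B6. The level in B6 was 4.63 times that in 129, with an exact 95% counting interval of 0.519 to 219 that covers counting error only, so a strain difference was not detectable at this depth. Fcer1g lies on chromosome 1 at 171229572 to 171234365 and was at 0.628 and 0.569 CPM in 129, against 1.45 and 0.941 CPM in B6. Both 129 libraries lay below both B6 libraries, and the difference did not pass (log2 fold change -1.01, SE 0.57, edgeR adjusted p = 0.29).

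Receptors that use these adaptors were called higher in 129 for 1 gene of each adaptor. Trem2, a lipid-sensing receptor of macrophages and microglia that is coupled to TYROBP, rose in 129. It was at 17.3 and 5.93 CPM in 129, against 0.241 and 0.297 CPM in B6 (log2 fold change 5.42, SE 0.88, edgeR adjusted p = 0.037). Fcgr4, an activating Fc receptor that needs FCER1G, also rose, with 1.84 and 1.66 CPM in 129, against 0.0803 and 0.0990 CPM in B6 (log2 fold change 4.21, SE 0.67, edgeR adjusted p = 0.032). Its B6 values were under the value of 3 counts in those libraries (0.1205 and 0.1485 CPM), so the size of this rise is uncertain. Both calls were lost without 129 replicate 1, B6 replicate 1 or B6 replicate 2, in fits that called almost no gene. There the log2 fold change of Trem2 was 4.45, 5.26 and 5.52, and that of Fcgr4 was 4.15, 4.05 and 4.31.

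The other Fc receptors for IgG did not pass. Fcgr3, which also signals through FCER1G, was at 3.77 and 5.03 CPM in 129, against 1.09 and 1.29 CPM in B6 (edgeR adjusted p = 0.074). Fcgr2b, the inhibitory receptor, was at 6.18 and 7.87 CPM in 129, against 1.33 and 1.39 CPM in B6 (edgeR adjusted p = 0.052). Of their windows of 76 bases, 5.31% in Fcgr3 and 5.39% in Fcgr2b occur in another gene, chiefly in each other. Fcgr1, the high-affinity receptor used as a macrophage marker, had 2 and 0 counts in 129, against 3 and 0 counts in B6. Syk was at 33.4 and 48.3 CPM in 129, against 26.2 and 18.0 CPM in B6 (edgeR adjusted p = 0.14). Plcg2, a phospholipase downstream of it, was at 65.9 and 83.1 CPM in 129, against 104 and 75.8 CPM in B6. Of 9 tested genes of this list, 1 rose, 0 fell and 8 did not pass, and DESeq2 called 4 higher.

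**Figure D1:**
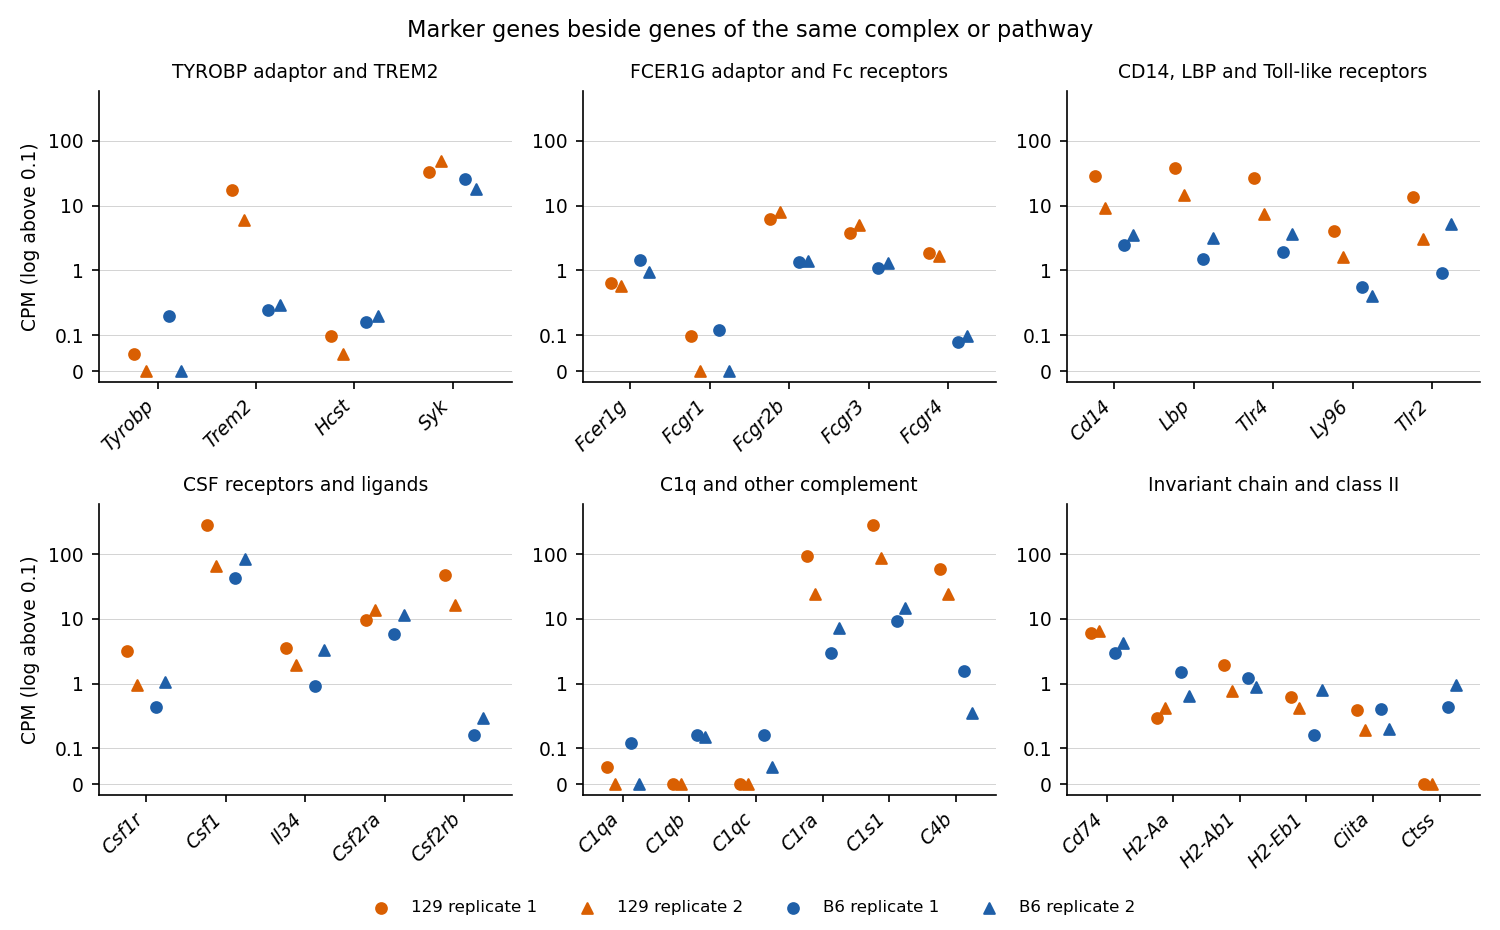
Level of marker genes beside genes of the same complex or pathway in the 4 libraries (vertical axis, CPM, log scale above 0.1 and linear below), with orange for 129 and blue for B6, circles for replicate 1 and triangles for replicate 2. Trem2 stood at 17.3 and 5.93 CPM in 129 while its adaptor gene Tyrobp was at 0.0483 and 0 CPM there, and C1s1 stood at 279 and 88.0 CPM in 129 while C1qa was at 0.0483 and 0 CPM.

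Adgre1 and Ptprc mark the surface of macrophages and of all leukocytes. Adgre1, which encodes the F4/80 antigen, lies on chromosome 17 at 57358691 to 57483527 and had 3 and 1 counts in 129, against 4 and 38 counts in B6. B6 replicate 2, at 1.88 CPM, stood apart from the other libraries, which were at 0.145 and 0.0474 CPM in 129 and 0.161 CPM in B6 replicate 1. Ptprc, which encodes the phosphatase CD45, lies on chromosome 1 at 138062861 to 138175708 and had 17 and 9 counts in 129, against 8 and 7 counts in B6. That is 0.821 and 0.427 CPM in 129, against 0.321 and 0.347 CPM in B6, without overlap. Neither passed the filter, and in edgeR without the filter, which called 1.09% of all genes, neither passed the test (log2 fold change -3.25, SE 1.37, adjusted p = 0.22 for Adgre1, and 0.89, SE 0.68, adjusted p = 0.50 for Ptprc).

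Cd74 encodes the invariant chain, which guides MHC class II molecules to the compartment where they take up peptide. It lies on chromosome 18 at 60803848 to 60812652 and was at 6.04 and 6.54 CPM in 129, against 2.93 and 4.21 CPM in B6. The 129 libraries were closer together (1.08-fold) than for the other 5 tested genes, and both lay above B6 (log2 fold change 0.83, SE 0.44, edgeR adjusted p = 0.27). The classical class II genes did not pass the test. H2-Aa was at 0.290 and 0.427 CPM in 129, against 1.53 and 0.644 CPM in B6, H2-Ab1 at 1.93 and 0.759 CPM in 129, against 1.20 and 0.891 CPM in B6, and H2-Eb1 at 0.628 and 0.427 CPM in 129, against 0.161 and 0.792 CPM in B6. The genes of the peptide-loading proteins did not pass either. H2-DMb1 was at 4.83 and 2.13 CPM in 129, against 0.201 and 0.297 CPM in B6 (edgeR adjusted p = 0.052), and H2-DMb2 at 2.995 and 0.996 CPM in 129, against 0.161 and 0.297 CPM in B6 (edgeR adjusted p = 0.077), without overlap of the strains. These neighbours share 15.7% and 15.9% of their windows of 76 bases with other genes, chiefly each other. H2-DMa, their partner chain, was at 8.79 and 5.74 CPM in 129, against 7.11 and 6.39 CPM in B6, and H2-Oa, of an inhibitor of peptide loading, at 3.33 and 5.41 CPM in 129, against 1.57 and 2.67 CPM in B6. Ciita, the master activator of class II genes, had 8 and 4 counts in 129, against 10 and 4 counts in B6. Ctss, the protease that trims the invariant chain in antigen-presenting cells, had 0 and 0 counts in 129, against 11 and 19 counts in B6, at least 9.27-fold lower in 129 when the 129 group as a whole is set to the floor of 3 counts. The class II list had 0 of 10 tested genes called by edgeR, 7 with a positive log2 fold change and a median of 0.28, with Rfx5 and Rfxank, subunits of a promoter-binding complex, the most abundant at 40.4 and 38.5 CPM and 17.5 and 17.7 CPM in 129, against 38.2 and 56.5 CPM and 11.3 and 16.1 CPM in B6. DESeq2 called 2 of the list higher and 1 lower.

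C1qa encodes a chain of C1q, the antibody-binding start of the classical complement pathway, which macrophages make in most tissues. It lies on chromosome 4 at 136895917 to 136898803 and had 1 and 0 counts in 129, against 3 and 0 counts in B6, at or under the floor of 3 counts in either strain. The genes of the other chains were as low. C1qb had 0 and 0 counts in 129, against 4 and 3 counts in B6, and C1qc had 0 and 0 counts in 129, against 4 and 1 counts in B6.

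Among the other complement genes, C1s1 and C4b rose in 129. C1s1, the C1 protease, was at 279 and 88.0 CPM in 129, against 9.36 and 14.7 CPM in B6 (log2 fold change 3.94, SE 0.59, edgeR adjusted p = 0.037). C4b, the component it cleaves, was at 58.3 and 23.9 CPM in 129, against 1.57 and 0.347 CPM in B6 (log2 fold change 5.35, SE 0.72, edgeR adjusted p = 0.032). C1ra, the partner protease, was at 92.8 and 24.2 CPM in 129, against 2.93 and 7.13 CPM in B6 (edgeR adjusted p = 0.055), and 42.1% of its windows of 76 bases occur in another gene, chiefly C1rb. C3, the central component, was at 712 and 170 CPM in 129, against 15.4 and 56.9 CPM in B6 (edgeR adjusted p = 0.065). Of the tested complement genes, 3 overlapped between the strains. C2, the other substrate of the C1 protease, was at 12.6 and 6.35 CPM in 129, against 5.95 and 14.3 CPM in B6, Cfb, of the alternative pathway, at 25.5 and 8.11 CPM in 129, against 3.46 and 48.0 CPM in B6, and Serping1, the C1 inhibitor, at 51.8 and 45.7 CPM in 129, against 21.1 and 70.3 CPM in B6. Another gene, Gm20547, is annotated over C2 and Cfb on the same strand. Of their windows of 76 bases, 39.1% in C2 and 69.7% in Cfb occur in another gene, chiefly Gm20547. Of 9 tested complement genes 2 rose, 0 fell and 7 did not pass, and the median log2 fold change was 2.80. Windows of 76 bases shared with another gene made up 24.4% of C1s1 and 22.3% of C4b. Both calls ended without 129 replicate 1, B6 replicate 1 or B6 replicate 2, in fits that called almost no gene. There the log2 fold change of C1s1 was 2.88, 3.64 and 4.25, and that of C4b was 4.57, 6.86 and 4.67.

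**Figure D2:**
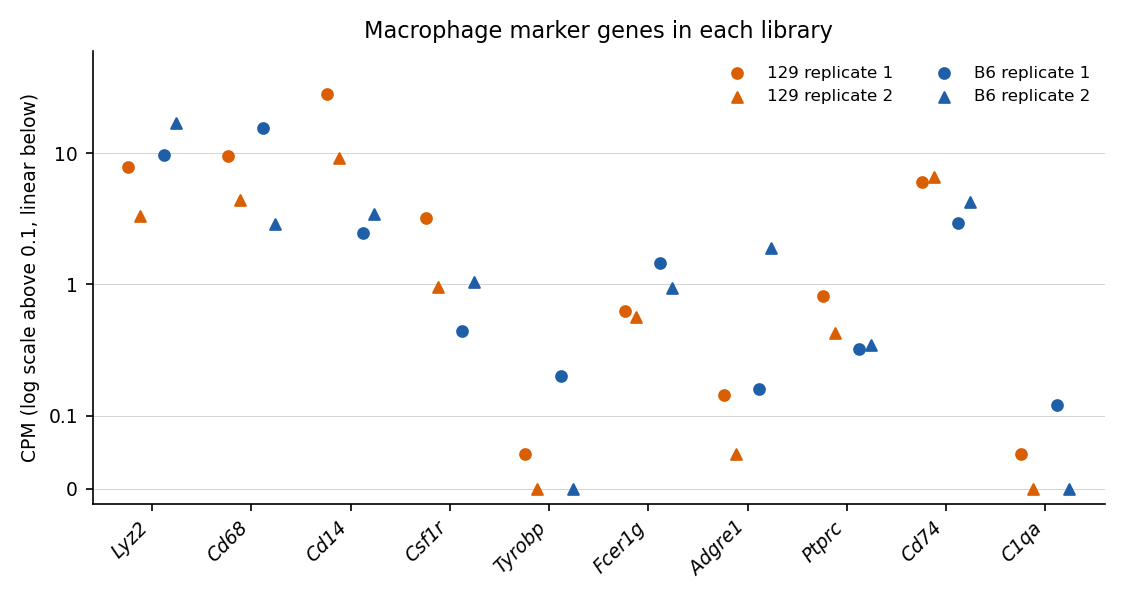
Level of the 10 macrophage marker genes in each library (vertical axis, CPM, log scale above 0.1 and linear below), with orange for 129 and blue for B6, circles for replicate 1 and triangles for replicate 2. Tyrobp and C1qa had no count in 129 replicate 2 and B6 replicate 2, and the library with the highest value changed from gene to gene.

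The 10 genes did not move in the same direction between the strains, and their split was near that of all genes tested. By CPM, 3 had both 129 libraries above both B6 libraries (Cd14, Cd74 and Ptprc). Another 3 had both below (Lyz2, Fcer1g and Adgre1), and 4 overlapped (Cd68, Csf1r, Tyrobp and C1qa). For Adgre1 the separation rests on 3 counts in 129 replicate 1 against 4 in B6 replicate 1. Of the 6 tested genes 2 were higher, 2 were lower and 2 overlapped. The libraries of the strains did not overlap for 60.1% of all genes tested, with 31.0% higher and 29.2% lower in 129. The split is therefore not particular to the marker genes. Of the 6 tested marker genes edgeR called 0, and 1, Cd14, had an unadjusted p under 0.05, where edgeR called 2.86% of all genes tested and 28.1% had such a p. DESeq2 called 1, Cd14, among the 10, limma-voom called 0 of 6, where it called 1.54% of all genes, and edgeR with a replicate block called 0 of 6, where it called 5.27%. Log2 fold changes were positive for 3 and negative for 3 of the tested genes, with a median of 0.19.

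**Figure D3:**
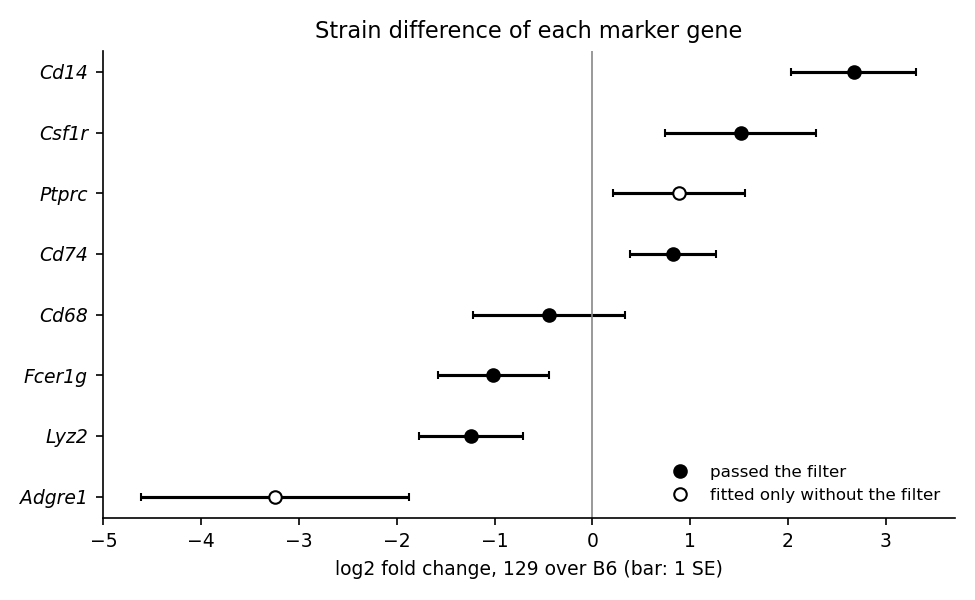
Log2 fold change of 8 marker genes, 129 over B6 (horizontal axis, points; bars, 1 SE), with filled points for the 6 genes that passed the filter and open points for Adgre1 and Ptprc, fitted only without it; Tyrobp and C1qa had too few counts. Values run from -3.25 for Adgre1 to 2.67 for Cd14, with Cd14, Csf1r, Ptprc and Cd74 above 0 and the others below.

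Nor did they share an order of libraries. The 6 tested genes ranked the 4 libraries in 6 different orders. Within 129, replicate 1 was above replicate 2 for 9 of the 10, all but Cd74. It was above for 5 of the 6 tested, with a median log2 ratio of 1.17. Some of the 9 differ by few counts, with 1 against 0 for Tyrobp and C1qa, 3 against 1 for Adgre1 and 13 against 12 for Fcer1g. Within B6, replicate 1 was above replicate 2 for 4 of the 10 (Cd68, Fcer1g, Tyrobp and C1qa). There Tyrobp had 5 counts against 0 and C1qa 3 against 0. Over all genes tested, 49.5% were higher in 129 replicate 1 and the median log2 ratio was -0.0053. Of 18 fibroblast markers, all tested, 18 were higher in 129 replicate 1, with a median log2 ratio of 1.29. Within B6, 15 of these 18 were higher in replicate 1 (median 0.28), where 2 of the 6 tested marker genes were (median -0.51). Of 14 genes of spermatogonia, 1 was higher in 129 replicate 1, with a median of -0.37. The lean to 129 replicate 1 also held for the Toll-like receptor list (10 of 10 tested), complement (8 of 9), CSF receptors and ligands (6 of 7) and leukocyte genes (10 of 12). It was absent from other lists, such as the adaptor receptors and kinases (4 of 9) and the further macrophage markers (4 of 8). Within B6, 1 of 9 complement genes and 0 of 7 CSF genes were higher in replicate 1. The part of fibroblast RNA in the levels of the marker genes was not tested.

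**Figure D4:**
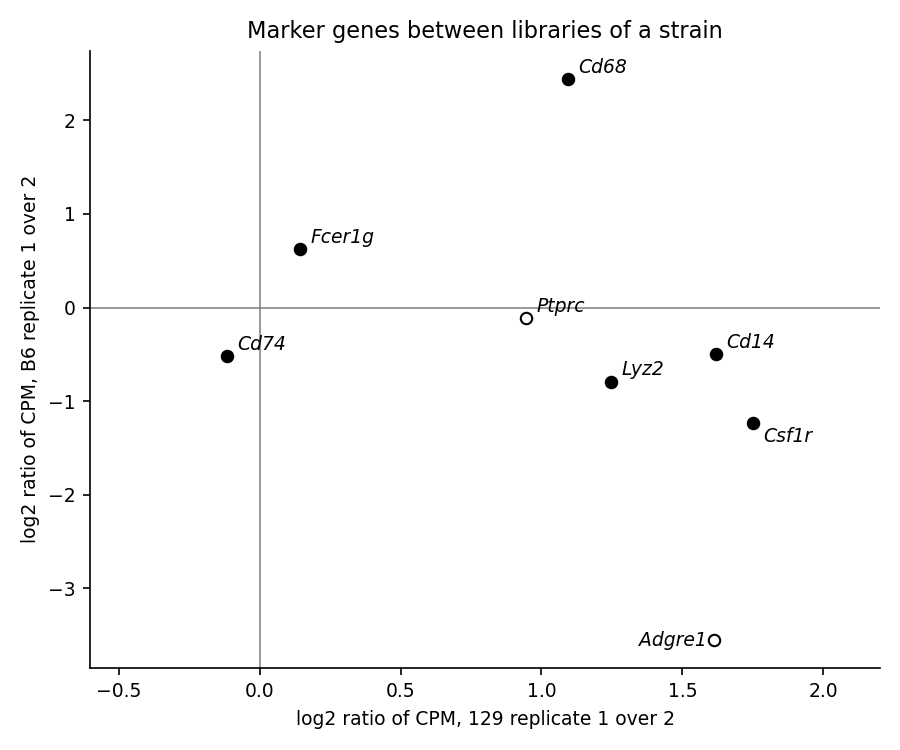
Log2 ratio of CPM between replicate 1 and replicate 2 of strain 129 (horizontal axis) and of B6 (vertical axis) for the 8 marker genes with counts in all 4 libraries, filled where the gene was tested. Cd68 (1.10 in 129 and 2.44 in B6) and Fcer1g (0.14 in 129 and 0.62 in B6) were higher in replicate 1 of both strains, Cd74 in neither, and the other 5 in 129 replicate 1 and B6 replicate 2.

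On a scale of CPM per kilobase of annotated exons, Cd14, Cd68, Lyz2 and Cd74 stood above the other 6 genes in the mean of each strain. In 129 the means were 10.8 for Cd14, 5.50 for Cd68, 4.25 for Lyz2 and 3.75 for Cd74, followed by 0.685 for Fcer1g and 0.358 for Csf1r, and the remaining 4 were between 0.0232 and 0.0362. In B6 they were 10.1 for Lyz2, 7.36 for Cd68, 2.13 for Cd74, 1.71 for Cd14 and 1.36 for Fcer1g, and the remaining 5 were between 0.0182 and 0.315. Within 129 each neighbouring pair from Cd14 down to Cd74 overlapped between libraries, and within B6 each pair from Lyz2 down to Fcer1g did. These overlaps leave aside that the genes were read in the same libraries. Cd14 was above Cd68, and Cd68 above Lyz2, in each 129 library, and Cd74 was above Cd14 in each B6 library. For the other neighbouring pairs the order changed between the libraries of a strain. Genes farther apart did not overlap where Cd14 is set against Cd74 in 129, or Lyz2 against Cd74, Cd14 and Fcer1g in B6. In B6, Cd68 also did not overlap Cd14 or Fcer1g, and Cd74 did not overlap Fcer1g. Lyz2, Cd14, Cd68 and Cd74 together made up 91.4% and 92.2% of the summed CPM of the 10 genes in 129, against 91.9% and 86.7% in B6. That sum was 56.5 and 25.5 CPM in 129, against 33.4 and 31.6 CPM in B6. Both B6 sums lay between those of 129.

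Other markers placed these levels. Of 24 further macrophage markers, 15 were under 1 CPM in every library, and 7 of them had at most 3 counts in any library (Cx3cr1, Cd163, Fcgr1, Folr2, Timd4, Ccr2 and Clec12a). Of the 8 tested, 1 rose (Trem2), 0 fell and 7 did not pass, with a median of 0.068. Mpeg1, a pore-forming protein of phagocytes, was at 13.1 and 3.60 CPM in 129, against 0.683 and 1.63 CPM in B6 (edgeR adjusted p = 0.085). Lyve1 was at 9.95 and 12.5 CPM in 129, against 14.0 and 11.8 CPM in B6, and Mertk, a receptor for dying cells, at 5.41 and 9.15 CPM in 129, against 6.31 and 6.73 CPM in B6. Lyve1 is also a marker of lymphatic endothelium, and Mertk is known in Sertoli cells. Spi1, the gene of PU.1, had 4 and 2 counts in 129, against 2 and 6 counts in B6.

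Leukocyte genes were not called by edgeR in either direction. Of 12 tested, edgeR called 0, 8 had a positive log2 fold change and the median was 0.91, while DESeq2 called 2 higher and 2 lower. Cd48, with 47 and 10 counts in 129 and 0 and 0 in B6, was at least 20.5-fold higher in 129 against the floor over the B6 group. It did not pass the test (log2 fold change 7.90, SE 2.14, edgeR adjusted p = 0.090). Coro1a, an actin-binding protein of leukocytes, was at 5.51 and 7.92 CPM in 129, against 16.5 and 20.8 CPM in B6, whereas the integrin gene Itgb2 was at 8.36 and 6.07 CPM in 129, against 2.97 and 3.12 CPM in B6. The most abundant were Runx1, a blood transcription factor, at 36.9 and 14.0 CPM in 129, against 14.4 and 8.96 CPM in B6, and Arhgdib at 29.7 and 13.7 CPM in 129, against 19.1 and 23.6 CPM in B6, and both overlapped.

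**Figure D5:**
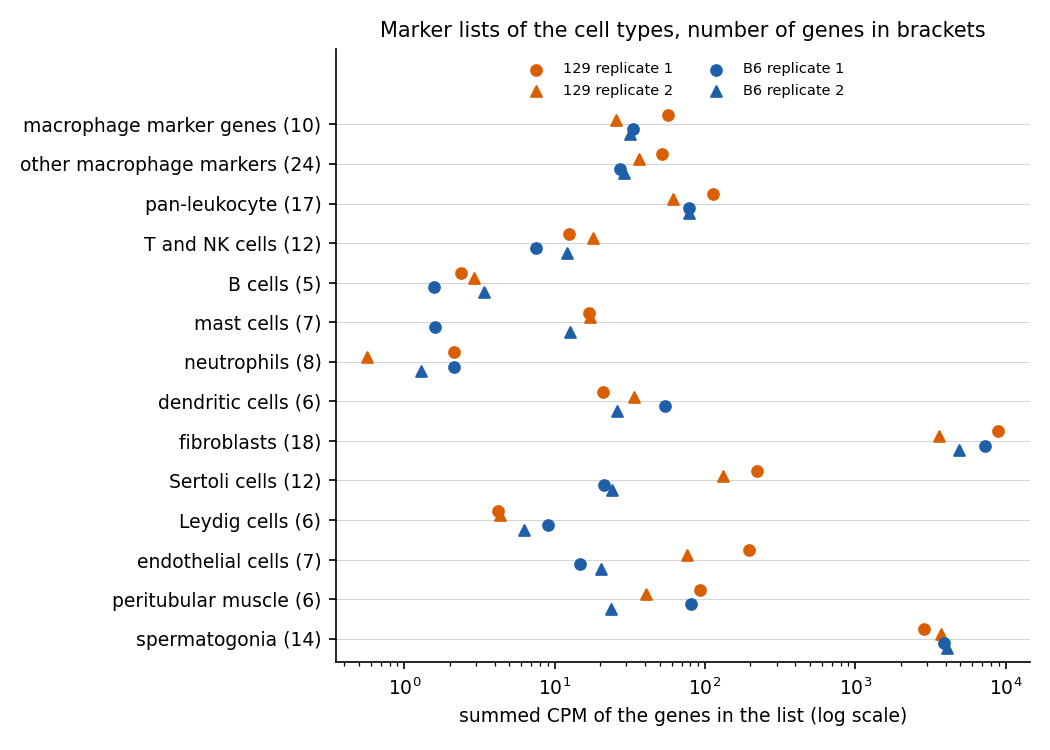
Summed CPM of the genes in each marker list (horizontal axis, log scale) in the 4 libraries, with orange for 129 and blue for B6, circles for replicate 1 and triangles for replicate 2, and the number of genes beside each list. The 10 macrophage marker genes summed to between 25.5 and 56.5 CPM, while the fibroblast list summed to between 3610 and 8934 CPM and the spermatogonial list to between 2879 and 4061 CPM.

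Markers of the labelled cell type were high in every library. The summed level of 14 genes of spermatogonia was 2879 and 3735 CPM in 129, against 3907 and 4061 CPM in B6, with 1 of the 14 called higher and 1 lower in 129 and a median log2 fold change of -0.50. Etv5, a transcription factor of spermatogonial stem cells, was higher in 129 (202 and 234 CPM, against 59.2 and 80.4 CPM in B6, log2 fold change 1.64, edgeR adjusted p = 0.032), and Uchl1 was lower (303 and 385 CPM in 129, against 825 and 756 CPM in B6, edgeR adjusted p = 0.036). Dazl was at 635 and 832 CPM in 129, against 1052 and 1010 CPM in B6. The 18 fibroblast genes summed to 8934 and 3610 CPM in 129, against 7245 and 4930 CPM in B6, with 1 of 18 tested called higher, Pdgfra, a call lost with no filter (edgeR adjusted p = 0.055) and with the stricter filter (edgeR adjusted p = 0.050). Sertoli cell genes summed to 223 and 132 CPM in 129, against 21.3 and 24.2 CPM in B6 (1 of 10 higher, Clu), and endothelial genes to 197 and 75.8 CPM in 129, against 14.7 and 20.4 CPM in B6 (2 of 5 higher, Cdh5 and Eng). Peritubular muscle genes summed to 93.2 and 40.3 CPM in 129, against 81.3 and 23.6 CPM in B6 (1 of 6 higher, Des), and Leydig cell genes to 4.20 and 4.36 CPM in 129, against 9.04 and 6.24 CPM in B6 (0 of 1 called). The part of these cells in the levels of Trem2, Csf2rb, Lbp and the complement genes was not tested. Of the 13 genes of all lists that edgeR called, limma-voom called 5, Csf2rb, Clu, Des, Uchl1 and Etv5, where it called 1.54% of all genes. The 13 calls did not hold without 129 replicate 1, B6 replicate 1 or B6 replicate 2, in fits that called almost no gene. Total counts per library ran from 20375086 to 25374801, so that 1 count was worth 0.0402 to 0.0495 CPM and the floor of 3 counts 0.121 to 0.149 CPM. Across genes, themselves no independent replicates, Pearson's r of log2(CPM + 1) was 0.974 within 129, 0.972 within B6 and 0.904 to 0.954 between strains.

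Genes with the most similar profiles were found over all genes tested, by the root mean square difference of log2(CPM + 1) across the 4 libraries after centring each gene on its mean. They were Ifi204 (0.047) and Trim8 (0.054) for Cd14, Sbsn (0.019) and Vasn (0.050) for Csf1r, Parp4 (0.017) and Elmod3 (0.023) for Cd74, Pimreg (0.015) and Pgpep1l (0.018) for Fcer1g, Dis3l (0.064) and H2-Q10 (0.11) for Cd68, and Bdkrb1 (0.12) and Gm10309 (0.13) for Lyz2. None of these neighbours was another of the 10 marker genes. As only the nearest of 16005 genes were kept for each, this was likely beforehand, and nothing is concluded from it. With 4 libraries many genes share a profile, and the likeness is a description.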

How the data were processed

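Stranded mRNA libraries of GS cells were read as single reads of 76 bases, and the authors deposited raw read counts for each gene, with a column for each library and a gene on every row. The tools named, per the submitters' processing notes, were HISAT2 2.2.1 and HTSeq 0.13.5 with build mm10, beside cutadapt 3.4, bcl2fastq 2.20 and DESeq2 1.30.1. For settings, annotation release and strand, the sources used here give nothing. The reference is of C57BL/6, so 129 reads that carry strain variants may be lost. Libraries were assigned to strains by title.

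The strains were compared in edgeR 4.0.16 (R 4.3.3) with filterByExpr, TMM factors and the robust quasi-likelihood test with strain as the only term, and p-values were adjusted by Benjamini and Hochberg over 16005 genes (threshold 0.05). Standard errors were derived from the log2 fold change and the square root of F. With 2 libraries per strain an exact permutation test of a single gene cannot go below p = 0.333. Libraries of a strain were not duplicates (chi-square per gene 54.6 in 129 and 43.1 in B6). Reads are not independent molecules, so intervals and the floors of 3 counts hold counting error alone. Exon lengths, positions, overlaps and shared windows came from GENCODE M21 (GRCm38), promoters from RefSeq.

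The 10 genes and 20 further lists of 231 genes, 230 of them found, were chosen with earlier results of these data known, and 1 further listed gene is not reported here. The rule for other named genes was up to 4 called genes and the 2 of highest mean CPM per list. Lyz1 aside, members of a complex with a marker gene (such as Tlr4, Ly96, Fcgr3 and C1qb) and Mpeg1, Spi1, Coro1a, Itgb2, Cd48, C2, Cfb, Serping1 and the H2-DM and H2-Oa genes were named after their values were seen. Alternatives were other scalings, no filter, a stricter filter of 1 CPM in each library of a strain, DESeq2 1.42.0, limma-voom (limma 3.58.1), a replicate block, each library left out and, added after seeing the data, the legacy form of the edgeR test.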

Additional observations from a re-analysis of the deposited data

How the results depend on the processing

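The call of 0 among the marker genes became 1, Cd14, with upper-quartile factors (log2 fold change 2.68), library totals (2.71) and DESeq2 (2.65), and ranged from 0 to 1 when a library was left out (1.65 to 3.27 for Cd14). Leaving out a library gave -1.22 to 1.26 for Cd68, -1.99 to -0.75 for Lyz2, 0.41 to 2.17 for Csf1r, -1.31 to -0.65 for Fcer1g and 0.57 to 1.06 for Cd74. The 457 called genes became 1021 with upper-quartile factors, 1052 with library totals, 260 with no filter, 2519 in DESeq2, 246 in limma-voom and 0 to 827 when a library was left out. Libraries of the strains share only a replicate number, with a correlation of same-numbered deviations of -0.022. The replicate block gave 844 called genes and called 0 marker genes. The summed CPM of the marker genes without Lyz2 was 48.6 and 22.1 in 129, against 23.7 and 14.8 in B6. B6 replicate 2 then lay below both 129 libraries. Without Cd68 and Cd74 the sum was 41.0 and 14.5 in 129, against 14.9 and 24.5 in B6, and both B6 sums lay between those of 129. Signs also changed for Arhgdib (-0.068 in limma-voom, -0.069 with the replicate block), Lamp1 (-6.2e-04 with DESeq2 size factors, -0.016 with the stricter filter, -0.0020 in DESeq2) and Pax5 (-0.17 in limma-voom). Without a library Mertk ranged from -0.27 to 0.49, Arhgdib from -0.64 to 0.48, Rfx5 from -0.52 to 0.0035, Lamp1 from -0.089 to 0.11, Cd3e from -1.05 to 0.75, Cd79a from -0.47 to 0.84, Pax5 from -1.20 to 0.79, Flt3 from -1.76 to 0.61, Acta2 from -1.16 to 1.65, Dis3l from -1.22 to 1.07, H2-Q10 from -1.23 to 1.18, H2-Ab1 from -0.47 to 0.87 and H2-Eb1 from -0.59 to 1.64. The cause of these changes was not tested. Csf1r and Fcer1g did not pass the stricter filter and have no value there. Counts of at most 5 per library for Tyrobp and C1qa limit what can be said of either strain.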

Other observations

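Markers of other blood cells were also sparse. Of 12 genes of T and NK cells, 8 had at most 3 counts in any library, among them Cd3d, Cd4, Cd8a and Ncr1. Lck, a kinase of T cells, was the most abundant, at 10.4 and 16.3 CPM in 129, against 5.14 and 9.26 CPM in B6 (edgeR adjusted p = 0.25), followed by Cd3e at 1.26 and 0.569 CPM in 129, against 0.522 and 1.88 CPM in B6. Among genes of B cells, Ms4a1 had no count, and Cd79a was at 1.55 and 2.47 CPM in 129, against 1.09 and 2.77 CPM in B6. Cpa3 and Mcpt4, proteases of mast cells, had no count, whereas Hdc, which makes histamine, was at 13.9 and 16.4 CPM in 129, against 1.53 and 12.4 CPM in B6, and Tpsab1, a tryptase, at 2.80 and 0.854 CPM in 129, against 0 and 0.0495 CPM in B6. S100a9 and Retnlg of neutrophils and Xcr1 and Cd209a of dendritic cells had no count. Of Flt3 and Zbtb46 in the dendritic cell list, Zbtb46 was at 18.1 and 25.5 CPM in 129, against 38.1 and 22.3 CPM in B6.

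Genes of the lysosome, the organelle that holds the CD68 protein, were abundant. Of 22 tested, edgeR called 0, 19 had a positive log2 fold change and the median was 0.34, while DESeq2 called 5 higher and 1 lower. Psap, which encodes the precursor of the saposins, was at 1542 and 782 CPM in 129, against 504 and 566 CPM in B6 (edgeR adjusted p = 0.086), and Lamp1, a membrane protein of the lysosome, at 965 and 841 CPM in 129, against 844 and 950 CPM in B6. Of these 22 genes 18 were higher in 129 replicate 1 than in replicate 2, where 49.5% of all genes tested were.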
